A study of Mus musculus with 2 samples.

Results

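The TALE homeobox genes Meis1, Meis2, Meis3, Pbx2, Pbx3, Pbx4, Pknox1, Pknox2 and Tgif1 were followed in PDGFRα+ cells, which were sorted from the non-adipocyte fraction of mouse inguinal white fat with an antibody against this growth factor receptor. Meis1 is the gene that the series' title joins to Sox9, and the others are its paralogues, its PBX partners and the related repressor Tgif1. All probe sets whose platform annotation named one of these genes were taken, which gave 9 probe sets for the 9 genes, out of 21335 genes with a value. Each gene had 1 probe set of its own and none of the 9 named a further gene. The floxed array held RNA of female mice with floxed Sox9, and the PreASKO array RNA of female mice of the genotype labelled Sox9 PreASKO. The mice of both groups were 6 weeks old and had received doxycycline at postnatal day 1, so the control animals were exposed to the drug as well. The series describes each array's RNA as a pool of 3 mice. The labels do not name the promoter that drives the recombination or spell out PreASKO.

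TALE proteins carry a short loop of additional amino acids in their DNA-binding homeodomain. MEIS and PKNOX proteins bind PBX proteins through a domain at their amino terminus, which favours the presence of PBX in the nucleus, and the complexes act with HOX proteins as cofactors at shared DNA sites. TGIF1 belongs to the same superclass but works as a repressor, recruiting histone deacetylases and restraining SMAD-dependent TGF-beta signalling. SOX9 directs the formation of cartilage, among other lineages.

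The annotated start regions of the MEIS paralogues are shown because Meis1 is the gene paired with Sox9 in the study's title. The windows hold 250 bases before and 50 bases after the start, 300 in all, in the RefSeq annotation of build GRCm38.p6, and are written 5′ to 3′ on the strand of the gene. Capitals mark the letters of the SOX core motif ACAAT, searched on both strands (ATTGT on the opposite one).
Meis1, chr11:19018920-19019219, minus strand: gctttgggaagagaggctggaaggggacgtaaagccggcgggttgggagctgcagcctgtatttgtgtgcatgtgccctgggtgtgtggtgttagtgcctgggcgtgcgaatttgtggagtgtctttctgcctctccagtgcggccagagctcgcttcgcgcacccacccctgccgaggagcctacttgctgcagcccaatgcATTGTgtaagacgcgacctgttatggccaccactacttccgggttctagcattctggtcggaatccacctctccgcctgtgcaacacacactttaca
Meis2, chr2:116064570-116064869, minus strand: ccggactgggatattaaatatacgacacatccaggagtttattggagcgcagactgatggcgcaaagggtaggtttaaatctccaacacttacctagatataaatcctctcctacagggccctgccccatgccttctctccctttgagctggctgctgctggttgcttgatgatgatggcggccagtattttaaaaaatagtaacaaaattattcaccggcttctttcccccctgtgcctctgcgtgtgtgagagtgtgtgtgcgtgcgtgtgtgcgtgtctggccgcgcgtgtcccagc
Meis3, chr7:16175145-16175444, plus strand: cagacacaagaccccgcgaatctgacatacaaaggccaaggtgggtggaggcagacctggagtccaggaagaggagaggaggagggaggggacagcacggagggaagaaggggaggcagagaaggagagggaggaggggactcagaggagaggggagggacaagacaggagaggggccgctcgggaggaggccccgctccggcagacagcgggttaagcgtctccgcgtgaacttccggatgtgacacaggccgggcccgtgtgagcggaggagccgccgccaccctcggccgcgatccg
The Meis1 window held the motif once, on the opposite strand and beginning 47 bases before the start. The Meis2 and Meis3 windows did not hold these letters. Among 32851 promoter windows of the same length, 31.0% held the motif. Its presence in Meis1 therefore only describes the sequence, and binding there was not tested. RefSeq windows were found for 6 of the 9 genes, 10 windows in all, because Tgif1 had several annotated starts. Pbx3, Pknox1 and Pknox2 had no window, so no motif was searched for them. Meis1, Meis2 and Meis3 had 1 window each beside 9, 28 and 20 RefSeq transcripts, so any further starts were not read. The SOX letters were in 2 of these 10 windows, that of Meis1 and 1 of Tgif1. The MEIS and TGIF core TGACAG was in 2 windows, both of Tgif1, and in 19.2% of all windows. The PBX core TGATTG was in 1 window of Tgif1 and in that of Pbx4, and in 14.0% of all windows. The HOX and PBX composite TGATNNAT was in 1 window of Tgif1 and in 8.85% of all windows. None of the matches overlapped another of these motifs. The Pbx2 window was 76.0% G and C with 29 CpG dinucleotides, against medians of 52.7% and 7 over all windows. The corresponding values were 58.3% and 15 for Meis1, 51.0% and 13 for Meis2, and 66.7% and 21 for Meis3.

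The arrays were first read for the gene that was targeted and for the cells that were sorted. Sox9 was at 5.25 in floxed and 4.97 in PreASKO on the log2 scale of the deposited RMA values, a difference of -0.27. In size this lay between the differences of Pknox2 (-0.30) and Tgif1 (0.22), which 23.0% and 35.8% of all genes reached in either direction. Where the Sox9 probe set lies relative to the deleted part was not examined either, so this value is no check of the labels. Every difference below subtracts the floxed from the PreASKO value on the log2 scale, where the study's limit of 1.5-fold corresponds to 0.585. With 1 array per group there is no replicate, no error and no test for any of them. To mark the background, 1116 olfactory receptor genes were taken as silent in these cells, and their 95th percentile was 4.90 in floxed and 4.79 in PreASKO. The higher value, 4.90, was used as the mark for both arrays. Sox9, at 5.25 and 4.97, was near this mark and barely above it in PreASKO, so its difference is limited by background as well. All 10 measured fibroblast markers were above the mark on both arrays, with Pdgfra at 9.86 and 9.55, but so were all 15 macrophage markers. In bulk RNA fewer cells of a type and less RNA per cell cannot be told apart.

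None of the 9 TALE genes differed by 1.5-fold, where 4.04% of all genes did (1.57% higher and 2.47% lower in PreASKO), as did 3.75% of the 11798 genes that reached the background mark on at least 1 array. Of the 9 genes 4 were higher and 5 lower in PreASKO, with differences from -0.39 to 0.42. Their median difference was -0.02. The median was 0 over all genes and 0.02 over the 11798 genes that reached the mark. Regardless of sign the median difference was 0.107 for the 9 genes, 0.159 for all genes and 0.147 for those 11798. The TALE genes as a list thus moved no more than genes in general. All 9 lay above the background mark on both arrays. Levels of different genes are not ranked here, since each comes from other probes.

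**Figure D1:**
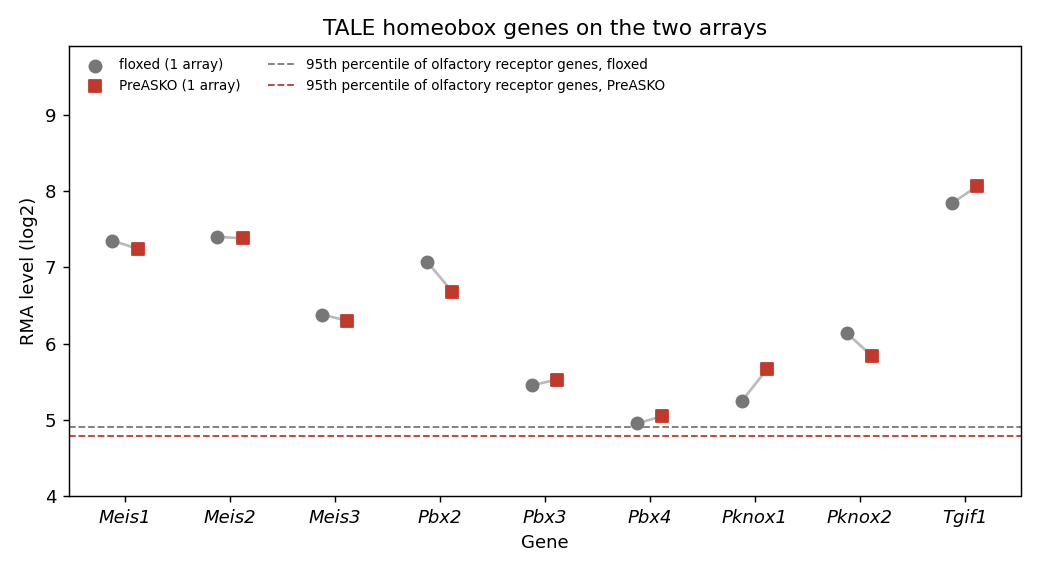
RMA level (log2, vertical axis) of each TALE gene (horizontal axis) on the floxed array (grey circles) and the PreASKO array (red squares), with 1 array per group and no error bars. Dashed lines show, for each array, the level under which 95% of olfactory receptor genes lie (4.90 and 4.79); all 9 genes lie above both lines, Pbx4 just above the floxed one.

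Meis1, a transcription factor known for its part in blood stem cells and leukaemia, was at 7.35 in floxed and 7.24 in PreASKO (probe set 10384504). The difference of -0.11 corresponds to a 1.08-fold lower level in PreASKO. Of all genes 63.7% differed by at least as much in either direction, so the shift of Meis1 was smaller than that of most genes. Its level was above that of every olfactory receptor gene on both arrays.

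Meis2, a paralogue active in the development of the heart and the face, was at 7.40 and 7.38, a difference of -0.02 (probe set 10486041). Meis3, the least studied of the family, was at 6.38 and 6.30, a difference of -0.08 (probe set 10550274). All MEIS genes thus had small negative differences, and Meis1 differed from Meis2 by 0.08 and from Meis3 by 0.03. On these arrays Meis1 could not be told from its paralogues by its difference, and that statement has no error behind it.

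The PBX genes, whose proteins are the DNA-binding partners of MEIS and PKNOX proteins, were less alike. Pbx2, a broadly expressed member, was at 7.07 and 6.68, the most negative difference of the 9 genes at -0.39 (probe set 10444394). This is a 1.31-fold lower level in PreASKO, and 12.9% of all genes differed by at least as much. Pbx3 was at 5.46 and 5.53, a difference of 0.07 (probe set 10481857). Pbx4, best known from the testis, was at 4.96 and 5.05, a difference of 0.09 (probe set 10572241). Its floxed level was only 0.05 above that array's mark, so its level is barely set apart from background. Pbx2 stood apart from Pbx3 by 0.47 and from Pbx4 by 0.49.

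The PKNOX genes, also known as PREP genes, had differences of opposite sign. Pknox1, a widely expressed regulator that competes with MEIS proteins for PBX, was at 5.25 and 5.67 (probe set 10443817). Its difference of 0.42, or 1.33-fold higher in PreASKO, was the most positive of the 9 genes, and 11.2% of all genes differed by at least as much. Its floxed level was 0.35 above the mark of that array. Pknox2, whose expression is more restricted between tissues, was at 6.13 and 5.83, a difference of -0.30 that 23.0% of all genes reached (probe set 10592251). The PKNOX genes therefore lay 0.72 apart, equal to a 1.64-fold shift of their ratio. The distance between Pbx2 and Pknox1, 0.81, or 1.75-fold, was the widest among the 9 genes. These pairs were chosen after their values were seen, and their distances have no error.

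Tgif1 was at 7.84 in floxed and 8.06 in PreASKO (probe set 10452633), a difference of 0.22, or 1.17-fold. Of all genes 35.8% differed by at least as much. Like Meis1 and Meis2 it was above every olfactory receptor gene on both arrays.

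**Figure D2:**
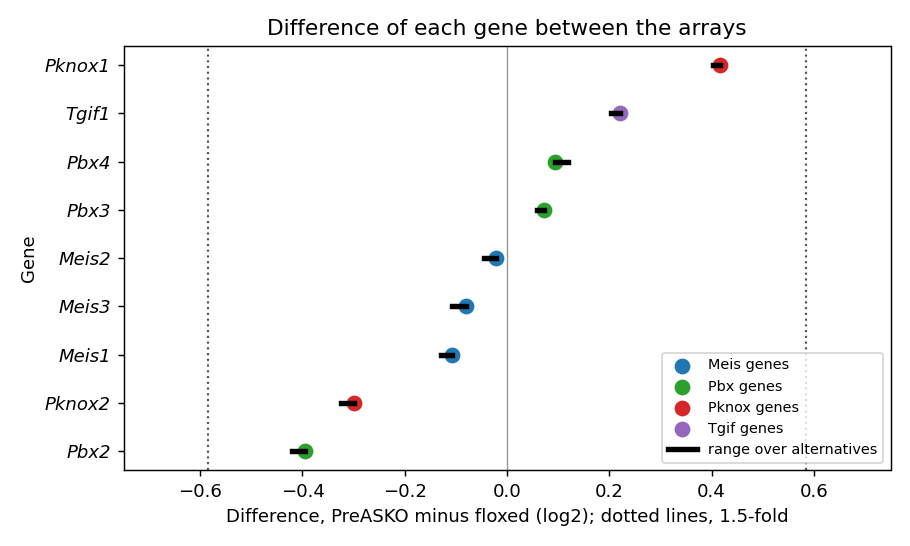
Difference PreASKO minus floxed (log2, horizontal axis) of each TALE gene (vertical axis), coloured by subfamily. Black bars span the reported value and its values under loess correction and quantile normalization, the settings that could move it, and are not errors; all 9 genes lie within the dotted lines at 1.5-fold (0.585), from Pbx2 at -0.39 to Pknox1 at 0.42.

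**Figure D3:**
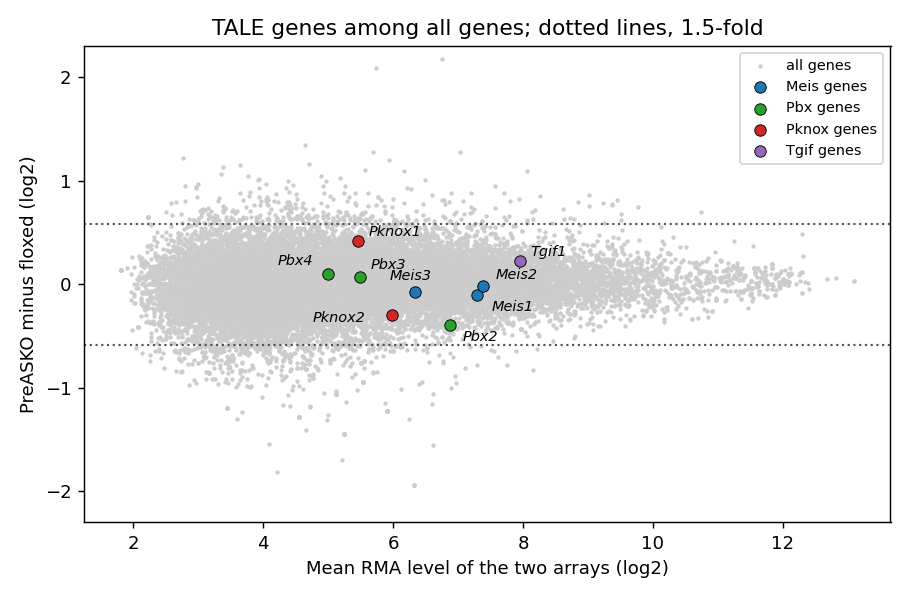
Difference PreASKO minus floxed (log2, vertical axis) against the mean level of both arrays (log2, horizontal axis) for all 21335 genes (grey) and the 9 TALE genes (coloured by subfamily). Dotted lines mark 1.5-fold; the TALE genes sit inside the cloud of all genes, and 862 genes (4.04%) lie on or outside the lines.

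The genes that flank the 9 TALE genes in the RefSeq order of protein-coding genes were read as well, 18 in all, each with a value. Among them 1 was past 1.5-fold, where 4.04% of all genes were. This was Tmem218, beside Pknox2, at 6.19 and 6.80, a difference of 0.62. Pknox2 itself differed by -0.30. Pbx2 lies between Gpsm3 and Ager, the receptor for advanced glycation end products, which differed by -0.07 and 0.17. Pknox1 lies between Ndufv3, a subunit gene of mitochondrial complex I, and Cbs, the gene of cystathionine beta-synthase, with differences of 0.13 and -0.35. Meis1 lies between Etaa1 and Spred2, which differed by 0.09 and -0.09. Cbs and Etaa1 were below the background mark on both arrays. The flanking genes were chosen after the data were seen, and whether they shifted together with the TALE genes was not tested.

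Other TALE genes outside these subfamilies had values for 8 of 9 listed genes, and none was past 1.5-fold, where 4.04% of all genes were. Their median difference was 0.04. Only 3 reached the background mark on at least 1 array. Irx3, an Iroquois gene studied in connection with body weight, was at 5.12 and 4.79, below the mark in PreASKO, a difference of -0.33. Irx2 differed by 0.06. Tgif2, the paralogue of Tgif1 with a similar repressor role, was at 7.04 and 7.09, a difference of 0.05 beside the 0.22 of Tgif1.

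Cofactors of TALE proteins had a median difference of 0.04 over 18 measured genes, with 13 higher and 5 lower in PreASKO. Among the 11798 genes that reached the mark on at least 1 array, 6216 were higher and 5416 lower. None of the 18 was past 1.5-fold, where 3.75% of those 11798 genes were. With so small a share, a list of this length may hold none without being special. All 18 lay above the mark on both arrays. Sin3a, the scaffold of a histone deacetylase complex, had the most positive difference of the list, 0.37 (6.70 and 7.07), followed by the CREB coactivator gene Crtc3 at 0.19. Smad2, a signal transducer of TGF-beta, was at 7.75 and 7.48, a difference of -0.28. The histone deacetylase gene Hdac1 differed by -0.27.

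The HOX genes, whose proteins bind DNA together with PBX and MEIS proteins, had a median difference of -0.10 over 38 measured genes. None was past 1.5-fold, where 4.04% of all genes were, and 23 were lower and 13 higher. For comparison, the 1116 olfactory receptor genes taken as silent had a median of -0.09, with 683 lower and 350 higher. On both arrays 24 of the HOX genes were below the mark, and 1 HOX gene had only a probe set shared with another gene. Over the 14 that reached the mark on at least 1 array the median was -0.04. Among these 14, Hoxc6 and Hoxc9 had the most negative differences. Hoxc6 was at 6.80 and 6.40, a difference of -0.40, and Hoxc9 at 6.31 and 5.94, a difference of -0.36. Hoxb4 and Hoxa9 had the most positive differences, 0.07 and 0.06.

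Macrophage markers, mural markers and cell cycle genes differed more than the TALE genes did. Regardless of sign their median differences were 0.506, 0.406 and 0.880, beside 0.107 for the TALE genes. Endothelial and lymphocyte markers were at 0.147 and 0.194, near the 0.159 of all genes. For the counts that follow, 1.57% of all genes were past 1.5-fold higher in PreASKO and 2.47% lower. Macrophage markers were higher in PreASKO for 14 of 15 genes, 5 of them past 1.5-fold, with a mean level of 8.81 in floxed and 9.24 in PreASKO and a median difference of 0.46. The exception was the chemokine receptor gene Cx3cr1, past 1.5-fold in the other direction at -0.60. The signalling adaptor gene Tyrobp was at 8.99 and 9.76. Mural markers had a median difference of -0.31 over 11 genes (mean levels 5.37 and 5.27), with 4 below the mark on both arrays. Past 1.5-fold 1 was higher and 1 lower. The higher of these, Cnn1, was below the mark on both arrays, at 3.35 and 3.98. Endothelial markers had a median of -0.12 over 10 genes (5.17 and 5.04), with 4 below the mark on both arrays and 1 past 1.5-fold lower. Of 9 lymphocyte markers 7 were below the mark on both arrays (mean levels 4.17 and 4.34), and 2 were past 1.5-fold higher. Of the latter, Cd3e was at 4.96 and 5.84, while Il7r, at 3.95 and 4.55, was below the mark on both arrays. Cell cycle genes were lower for 16 of 17 genes, 12 of them past 1.5-fold, with mean levels of 5.83 and 4.98 and a median of -0.88. The 1 higher gene came from a probe set that names a further gene. Fibroblast markers had a median of -0.05 over 10 genes (10.8 in both arrays), none past 1.5-fold. The part of these shifts in the differences of Pbx2, Pknox1, Pknox2 and Tgif1 was not tested.

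**Figure D4:**
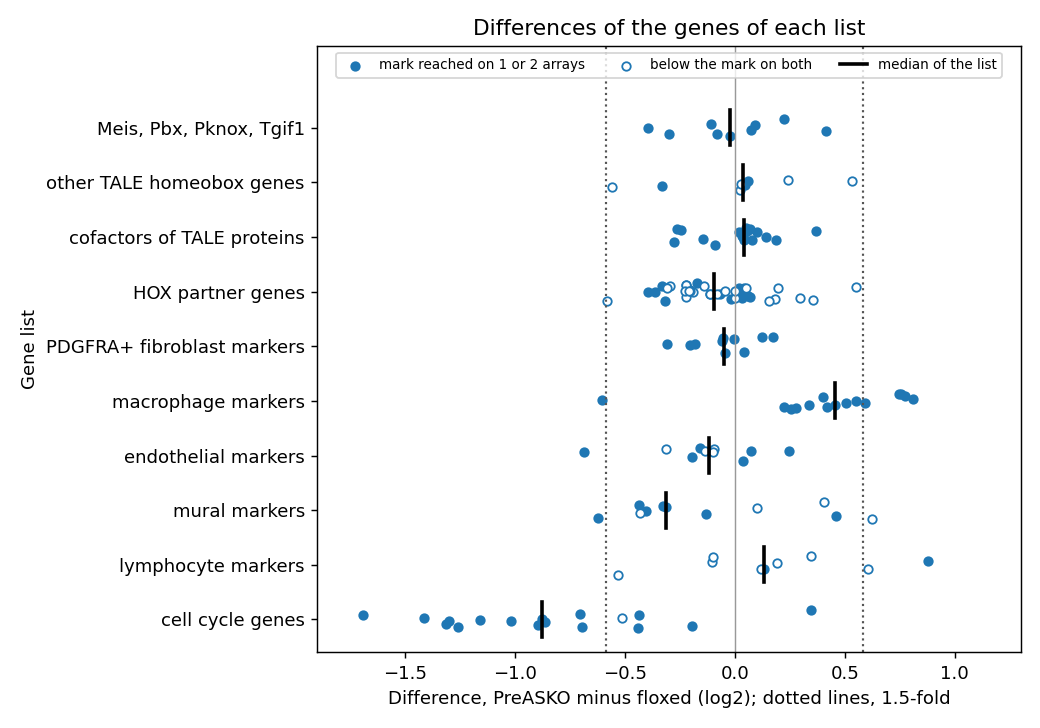
Difference PreASKO minus floxed (log2, horizontal axis) of every measured gene of each list (vertical axis); filled points reached the background mark (4.90) on at least 1 array, open points did not, and black bars are list medians. The 9 Meis, Pbx, Pknox and Tgif1 genes lie between the dotted 1.5-fold lines around a median of -0.02, while cell cycle genes centre on -0.88 and macrophage markers on 0.46.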

How the data were processed

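Labelled RNA of 1 floxed and 1 PreASKO sample was measured on 1 array each. The authors deposited log2 values summarised with RMA, per the submitters' processing notes. These notes do not state the log base, which was inferred from a range of 1.23 to 13.8. RMA makes the distributions of arrays alike and understates differences of dim genes. The labels give the molecule as polyA RNA and the extraction as total RNA.

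Of 35556 probe sets 21789 named 1 gene, 1621 several and 12146 none in the platform annotation. Probe sets naming several genes counted under each of their genes, and the probe set with the highest mean was used for a gene. All 9 gene symbols were found in RefSeq (GRCm38.p6). Only the promoter windows carry coordinates, since the values name no build. The precision is limited by the number of arrays, and no test was made.

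Genes named beside the 9 were Sox9, Pdgfra and up to 2 with the most positive and most negative differences per list above the background mark. Outside this rule, Cnn1, Il7r and Hoxd4 were named because they passed 1.5-fold, Hoxd4 only under an alternative, while below the mark on both arrays. Flanking genes were chosen after the data were seen. The members and lists were chosen with earlier results of these data known. Alternatives were the mean over probe sets, leaving out shared probe sets, raising dim values to the mark, leaving out dim genes, loess (span 0.3), quantile normalization, centring and a 2-fold limit. The steps were tested on simulated data. Python 3.11.15, pandas 2.3.3, numpy 2.4.6, statsmodels 0.14.6 and matplotlib 3.10.9 were used.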

Additional observations from a re-analysis of the deposited data

How the results depend on the processing

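Of the 7 alternatives that recomputed the differences of the 9 TALE genes, 5 could not change them and say nothing of their stability, since each gene has 1 unshared probe set above the mark and the median difference was already 0. Only loess correction and quantile normalization moved the values. Under both, the 9 genes kept their sign, moved by at most 0.0272 (Meis3) on the log2 scale, and stayed within the 1.5-fold limit. Among the other TALE, cofactor and HOX genes, 0 were past 1.5-fold as reported, where 4.04% of all genes were. With loess correction 1 was, and with quantile normalization 1, in both cases Hoxd4 (0.594 and 0.596 in place of 0.55), which was below the background mark on both arrays. Over all genes the 335 higher and 527 lower became 188 and 255 among genes at or above the mark on at least 1 array, 143 and 160 with values raised to the mark, and 20 and 77 at 2-fold. No replicate could be left out with 1 array per group. No paired analysis was possible because there is a single array of each genotype. Signal over background limits Pbx4, whose floxed level was 0.05 above the mark.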
